A study of Mus musculus with 4 samples.

Results

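The genes described here are the enzymes that hydroxylate and crosslink fibrillar collagen: the lysyl oxidases Lox, Loxl1, Loxl2, Loxl3 and Loxl4, the lysyl hydroxylases Plod1, Plod2 and Plod3, and the catalytic alpha subunits of prolyl 4-hydroxylase, P4ha1 and P4ha2. They were taken by symbol from the gene table of the deposited matrices, and all 10 of the 10 were among its 32285 genes. Prolyl 4-hydroxylase acts in the endoplasmic reticulum and makes the hydroxyprolines that hold the collagen triple helix together. Lysyl hydroxylases modify lysines of the same chains, and after secretion the copper enzymes of the lysyl oxidase family oxidise lysines and hydroxylysines, which then react into the covalent crosslinks that give tendon and scar their strength. Lysyl oxidases also crosslink elastin, and Plod2 is known for hydroxylating the telopeptide lysines, whose crosslinks are abundant in scar.

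Transcripts were counted on Visium arrays, on which each spot captures RNA from a small region that can hold several cells. Longitudinal sections, 10 µm thick, were cut from fresh frozen tissue around an injured mouse Achilles tendon, 14 days after a 0.5 mm biopsy punch about 2 mm above the heel bone. The F592A group had 2 sections (F592A 1 and F592A 2) from TrkA F592A mice labelled 1NMPP1, and the WT group had 2 sections (WT 1 and WT 2) from TrkA WT mice labelled Control. The F592A form is an analog-sensitive kinase that 1NMPP1 blocks. The labels do not say whether WT mice received the drug, so allele and drug cannot be told apart. Mice of both groups were 12 weeks old and of both sexes, and sections were not tied to animals. Each p-value thus reflects section-to-section variation, which may be technical. In WT sections it also includes a difference of sex (below).

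F592A 1 and F592A 2 gave 43957617 and 37089208 UMIs (unique molecules counted) over 2837 and 2751 spots, and WT 1 and WT 2 gave 42911141 and 30154873 UMIs over 3047 and 2027 spots. WT 2 stood apart: it held 4207 Xist UMIs, against 7, 12 and 10 in F592A 1, F592A 2 and WT 1. It held 23 UMIs of Y-linked genes, against 7723, 7522 and 7918 in the same order. These are counts of a female in WT 2 and of males in the other sections, so sex and group were partly confounded. Spots were put into 13 tissue classes by marker lists that hold no enzyme described here and no collagen, and class names stand for those lists. Wound matrix spots, led by Tnc, Postn and Lrrc15, numbered 179 and 160 in F592A sections and 73 and 43 in WT sections, and the defining tendon markers, Tnmd and Scx among them, were detected in tendon spots of every section. The cartilage list picked spots led by Sox9 and Acan, in which 1 or 2 of its 8 markers were at 0, so they are called Sox9/Acan-led spots.

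The 10 enzymes were far from evenly spread over the tissue. Levels are CPM, the UMIs of a gene per 1000000 UMIs of the spots summed. Lox, the founding lysyl oxidase, had its highest median over the 4 sections in wound matrix spots, 1199 CPM, with a range of 1024 to 1303. Tendon spots followed at 1183 CPM (1074 to 1483) and macrophage-list spots at 1111 CPM (941 to 1363), and these ranges overlapped. Fast and slow muscle spots held the lowest Lox levels, with medians of 170.5 and 153 CPM. Every section thus had more Lox in its wound matrix and tendon spots than in its fast or slow muscle spots.

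Against all other spots of the same section, Lox was higher in wound matrix spots by 0.54 ± 0.09 log2 units (± SE throughout; edgeR's quasi-likelihood test, adjusted p = 0.00028), and in tendon spots by 0.62 ± 0.10 (adjusted p = 0.0051). Of the 10 enzymes, 7 were higher in wound matrix spots, where 16.2% of all genes tested were higher. Loxl1, which is known for its role in elastic fibres, rose there by 0.86 ± 0.09, Plod2 by 0.79 ± 0.08, Loxl2 by 0.75 ± 0.08, P4ha2 by 0.61 ± 0.09 and Plod3 by 0.45 ± 0.09, with an adjusted p of 0.00079 or less in edgeR. P4ha1 rose by 0.24 ± 0.08 (edgeR, adjusted p = 0.029), a call lost under 6 alternatives. Loxl3 and Plod1 were at 0.13 ± 0.10 and 0.13 ± 0.11 and did not pass, and Plod1 was called only when WT 2 was left out.

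In tendon spots 4 enzymes rose, where 4.28% of genes did: Plod1, the lysyl hydroxylase of helical lysines, by 0.66 ± 0.14, Lox by 0.62, Plod2 by 0.55 ± 0.09 and P4ha1 by 0.50 ± 0.11. Of these, Lox, Plod2 and P4ha1 were also called in wound matrix spots. Loxl2 and P4ha2, which rose in wound matrix spots, were at 0.00 ± 0.09 in tendon spots. Plod1 and P4ha1 lost their calls in tendon without WT 2, and P4ha1 also without F592A 2, whereas Plod3 gained one without F592A 1 and at a z minimum of 1.5 for class membership, and Loxl3 without F592A 1. The tendon fit used a minimum of 20 spots per section, set after seeing that F592A 2 had 28.

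In Sox9/Acan-led spots 7 enzymes rose, against 7.88% of genes: Loxl3 by 0.82 ± 0.12, Plod2 by 0.79 ± 0.13, Plod3 by 0.65 ± 0.07, Plod1 by 0.57 ± 0.08, Loxl2 by 0.56 ± 0.08, P4ha1 by 0.45 ± 0.08 and P4ha2 by 0.41 ± 0.12. All of these but Loxl3 and Plod1 were also called in wound matrix spots. Lox stood at 0.40 ± 0.13, higher in 4 of 4 sections (edgeR, adjusted p = 0.059), and was called with RLE scaling, at a z minimum of 1.5, with no filter on low counts and without WT 2. Loxl1 stood at -0.19 ± 0.08 there (edgeR, adjusted p = 0.12). P4ha2 lost its call without F592A 1, without F592A 2 and without WT 2, and P4ha1 without F592A 1. Sheath and adventitia spots had 5 higher (Loxl1, Loxl3, Plod3, P4ha1 and P4ha2; background 7.7%).

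Macrophage-list spots had 4 higher, Lox by 0.37 ± 0.10, Loxl1 by 0.44 ± 0.10, P4ha2 by 0.24 ± 0.07 and Loxl4 by 1.18 ± 0.32 (edgeR, adjusted p = 0.027), against 12.6% of genes, and Plod2 was lower by -0.34 ± 0.06, against 14.1% lower. Loxl4 was the sparsest member, with 62 and 70 UMIs in all of F592A 1 and F592A 2 and 72 and 25 in WT 1 and WT 2. Its highest median level was the 3.09 CPM of macrophage-list spots. The leading genes of these spots held 2 of the list's 8 markers, Mrc1 and Lyz2, beside Sfrp2, Eln and Dlk1. Spots can hold several cells, so these calls cannot be assigned to macrophages.

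Fast muscle, slow muscle and skin held less of nearly all enzymes. Regenerating muscle spots, not fitted because F592A 2 held 3, did not share these low levels. Over the 3 other sections their median was 812 CPM for Lox and 488 CPM for Loxl1. Fast muscle medians were 170.5 and 93.2 CPM. Fast muscle spots had 9 lower, against 28.3% of genes, slow muscle spots 9 lower, against 23.2%, and skin epithelium spots 9 lower, against 28.4%, in each case all but Loxl4. P4ha1 lost its fast muscle call without F592A 2, and Loxl4 gained one in skin without WT 1 and in slow muscle at a z minimum of 1.5. The drop in fast muscle ran from -0.45 for P4ha1 to -1.76 for Lox. In skin epithelium Loxl1 was at -2.35 ± 0.17 and Lox at -2.15 ± 0.16, whereas Loxl2 was at -0.73 ± 0.15. Nerve-list spots had 6 lower (3.16% of genes), adipose spots 4 lower (4.15%), endothelial-list spots 2 lower (5.68%, Loxl2 and Plod2), and mural-list spots had 0 higher (2.75%) and 0 lower (2.55%) in edgeR's test, with 1, Loxl3, at an unadjusted p under 0.05.

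**Figure D1:**
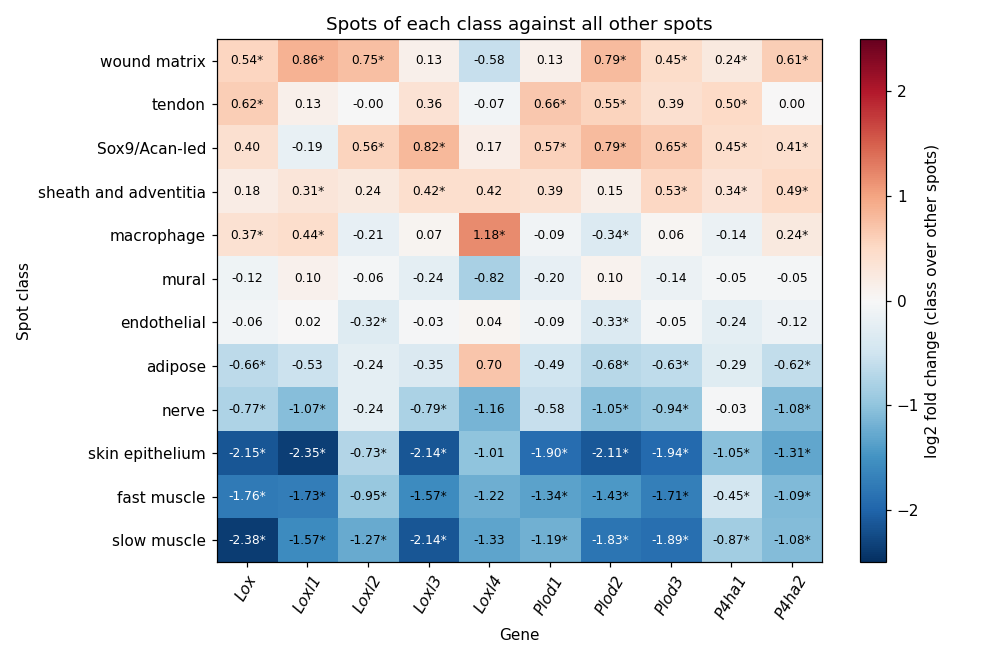
Heat map of the log2 fold change of each enzyme (columns) in spots of each class against all other spots of the same 4 sections (rows). Stars mark an adjusted p under 0.05 in edgeR's quasi-likelihood test. Wound matrix, tendon and Sox9/Acan-led rows are mostly positive, and skin, fast muscle and slow muscle rows are negative throughout. Regenerating muscle is not shown.

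By distance from the wound, Lox, Loxl1, Loxl2 and Plod2 were highest in the wound matrix spots themselves in all 4 sections, and Loxl3 and Plod1 were highest outside them in all 4. P4ha2 and Plod3 were highest outside in F592A 2 alone, and P4ha1 in 3 sections. In F592A 1, Lox stood at 1303 CPM in wound matrix spots, 1048 at 1 to 2 array steps, 969.5 at 3 to 5, 459 at 6 to 10 and 141 CPM at 11 steps or more. In F592A 2 the values in the same order were 1171, 1012, 1069, 673 and 176 CPM, and in WT 1 they were 1226, 1129, 1148, 836 and 343 CPM. In WT 2 they were 1024, 936, 943, 759.8 and 1023 CPM, so Lox did not decline with distance in that section. Muscle classes made up 51.1% and 43.8% of the outermost spots in F592A 1 and F592A 2, and 55.2% and 20.6% in WT 1 and WT 2. The part of tissue makeup in these profiles was not tested.

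Loxl3 stood at 108, 98.7, 114, 45.5 and 17.0 CPM with distance in F592A 1 and at 92.6, 104, 129, 120.5 and 29.0 CPM in F592A 2. In WT 1 it stood at 62.2, 62.1, 73.5, 46.4 and 24.6 CPM and in WT 2 at 46.0, 63.6, 67.2, 59.2 and 67.6 CPM. Plod1 stood at 215 CPM in wound matrix spots and at most 244 outside them in F592A 1, at 203 and 236 CPM in F592A 2, at 214 and 229 CPM in WT 1 and at 162 and 243 CPM in WT 2. These 2 enzymes thus had their highest level outside the wound matrix spots in every section. Plod2 in the wound matrix spots stood at 337 and 372 CPM in F592A sections and 267 and 299.6 CPM in WT sections.

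**Figure D2:**
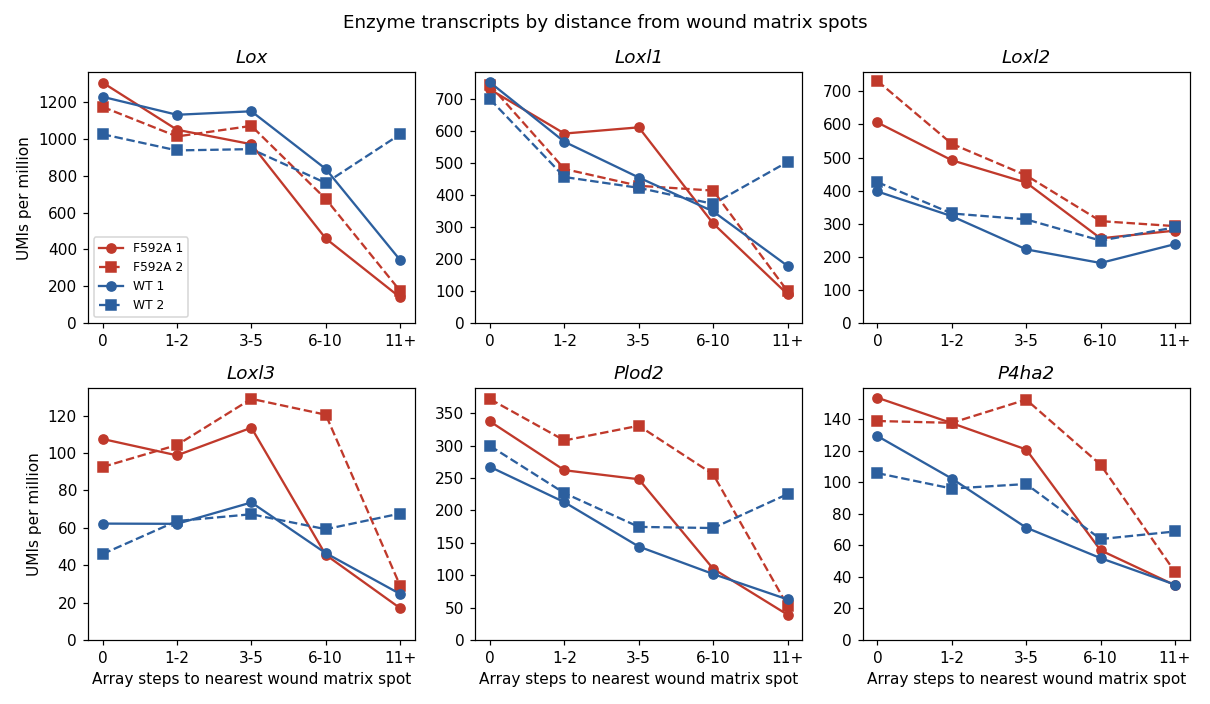
Level of 6 enzymes (CPM, linear axes from 0) by distance to the nearest wound matrix spot, in array steps, with 1 line per section. Lines of F592A 1, F592A 2 and WT 1 fall toward the far spots for Lox, whereas the WT 2 line ends at 1023 CPM.

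Loxl2 was also high in spots that no marker list claimed. This enzyme crosslinks collagen IV of basement membranes as well as fibrillar collagen. In those spots Loxl2 stood at 716 and 500.3 CPM in F592A sections and 447 and 469 CPM in WT sections. Its median there, 485 CPM, was close to its 516 CPM in wound matrix spots, as that of P4ha1 was (107 against 116 CPM), whereas Lox had 598 CPM in unclassed spots against 1199 in wound matrix spots. On the maps, Loxl2 formed narrow bands along the margins of muscle and skin that Lox did not show.

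After those bands were seen, the spots were split into 3 equal groups by their summed share of Gm42418, AY036118 and Lars2, transcripts that carry or resemble ribosomal RNA sequence. In the group with the highest share (above 2.21% of UMIs) Loxl2 stood at 1003 and 842 CPM in F592A sections and 403 and 561 CPM in WT sections. In the group with the lowest share (under 0.954%) it stood at 384 and 372 CPM in F592A sections and 256 and 273 CPM in WT sections. Lox went the other way, with 688 and 612 CPM in the highest-share spots of F592A sections and 545 and 588 CPM in those of WT sections, against 1002 and 879 CPM in the lowest-share spots of F592A sections and 1113 and 1036 CPM in those of WT sections. The highest-share spots were shallower, with median depths of 3388 and 4356.5 UMIs in F592A sections and 2543 and 3191 UMIs in WT sections. The part of these transcripts in the Loxl2 bands was not tested.

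**Figure D3:**
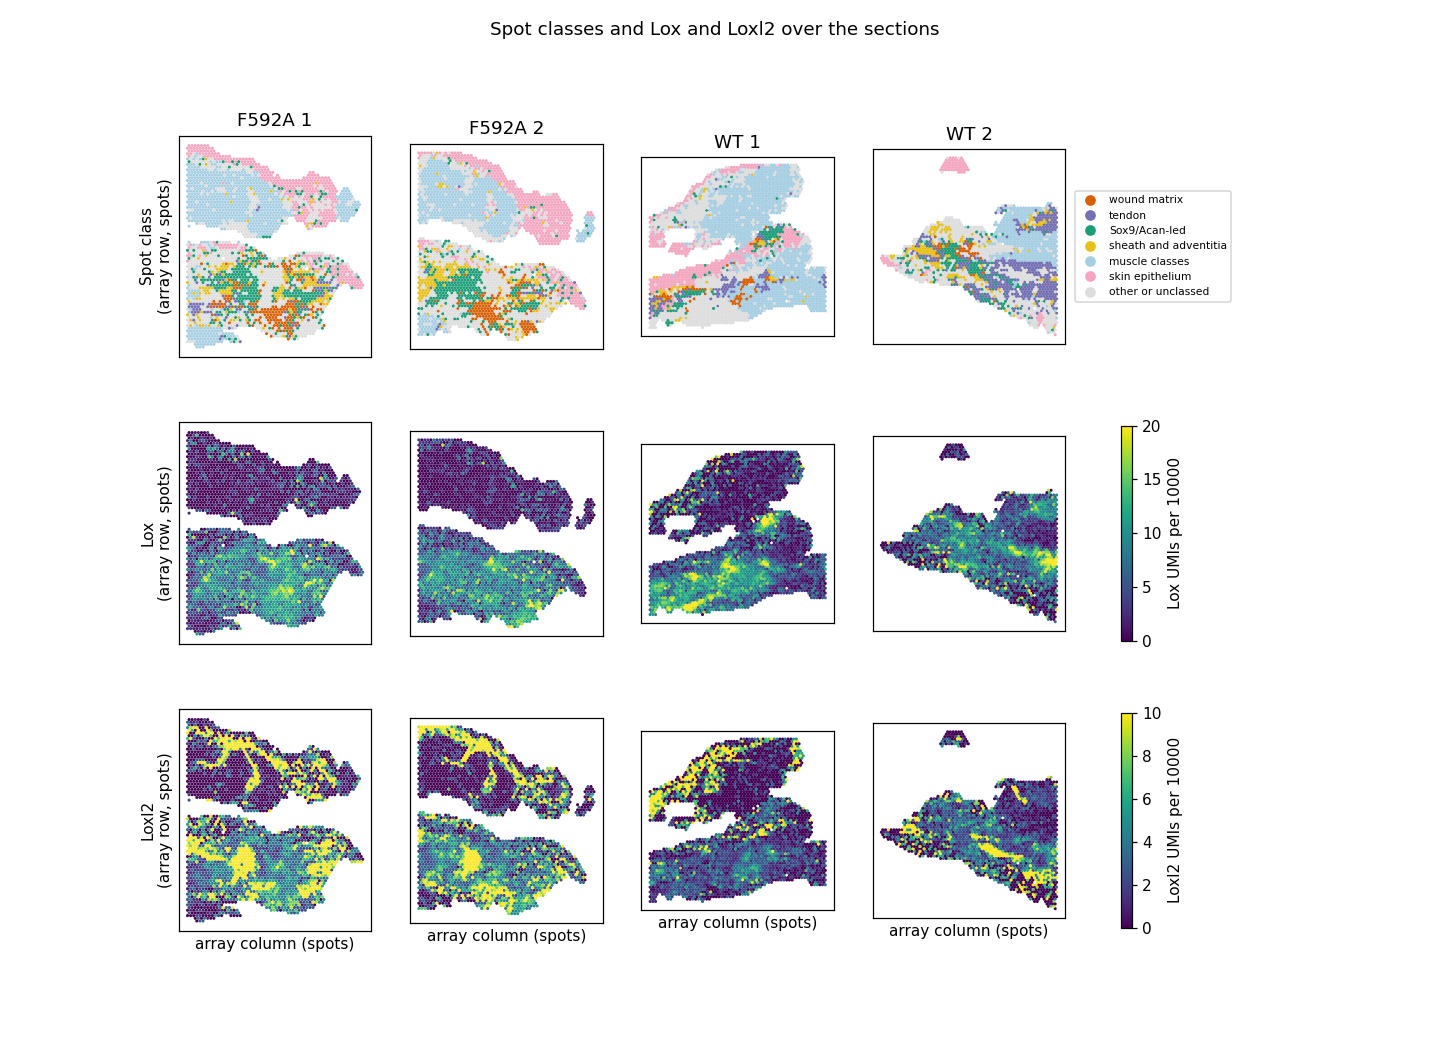
Spot classes (top), Lox (middle) and Loxl2 (bottom) in UMIs per 10000 of each spot, over the array rows and columns of F592A 1, F592A 2, WT 1 and WT 2. Colour scales stop at 20 (Lox) and 10 (Loxl2), and higher values take the top colour. Loxl2 shows narrow bright bands at muscle and skin margins, where Lox is dark.

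The comparison of groups asks what differed when TrkA signalling was blocked. Over whole sections no enzyme passed the test, while Loxl2, Loxl3 and P4ha2 were each higher in both F592A sections than in either WT section. Their fold changes between groups in edgeR were 1.55, 1.51 and 1.46. These 3 enzymes were also called higher in Sox9/Acan-led spots (above), which made up 13.1% and 11.5% of spots in F592A sections. In WT sections those spots made up 4.30% and 9.04%. Tendon spots numbered 90 and 28 in F592A sections and 133 and 468 in WT sections. The part of tissue makeup in the whole-section differences was not tested. In summed spots, more cells of a type and more RNA per cell cannot be told apart.

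Among lysyl oxidases, Loxl2 stood at 447 and 435 CPM in F592A sections and at 260 and 299 CPM in WT sections, a log2 fold change of 0.63 ± 0.14 (edgeR's quasi-likelihood test, adjusted p = 0.22). Loxl3, which is needed for palate and muscle attachment in mice, stood at 89.9 and 96.8 CPM in F592A sections and at 57.9 and 63.8 CPM in WT sections (0.59 ± 0.11, adjusted p = 0.20, edgeR). Lox stood at 911 and 797 CPM in F592A sections and at 983 and 924 CPM in WT sections (-0.18 ± 0.15, adjusted p = 0.70, edgeR). Loxl2 and Loxl3 were thus higher and Lox lower in both F592A sections, without overlap. Loxl1 stood at 535 and 397 CPM in F592A sections and at 452 and 451 CPM in WT sections, so its groups overlapped, as did those of Loxl4, at 1.41 and 1.89 CPM in F592A sections and 1.68 and 0.829 CPM in WT sections.

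Among hydroxylases, P4ha2 stood at 117 and 116 CPM in F592A sections and at 76.1 and 81.3 CPM in WT sections (0.54 ± 0.10, adjusted p = 0.20, edgeR). Plod2 stood at 231 and 255 CPM in F592A sections and at 154 and 204 CPM in WT sections (0.41 ± 0.18, adjusted p = 0.45, edgeR). Plod3, which also glycosylates hydroxylysine, stood at 122 and 120.4 CPM in F592A sections and at 96.8 and 104 CPM in WT sections (0.25 ± 0.11, adjusted p = 0.45, edgeR). All 3 had both F592A sections above both WT sections. Plod1 stood at 202 and 180.1 CPM in F592A sections and at 184 and 228 CPM in WT sections, and P4ha1 at 111 and 124 CPM in F592A sections and at 86.5 and 116 CPM in WT sections, and both overlapped.

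In all, 0 of 10 enzymes were called in edgeR's test, where 0.0795% of genes were, and 3 had an unadjusted p under 0.05 (Loxl2, Loxl3 and P4ha2), against 11.8% of genes. Both F592A sections lay above both WT sections for 5 enzymes, against 23.4% of genes, and below for 1, against 20.3%. DESeq2 called Loxl2, Loxl3 and P4ha2, with adjusted p of 0.0016, 0.0029 and 0.0038. With no filter on low counts edgeR called the same 3. Without WT 2, the section with Xist, edgeR called Loxl3 and P4ha2, in a fit with a lone WT section. Each of these settings also called far more genes in all than the main fit did (totals are given in the closing section).

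**Figure D4:**
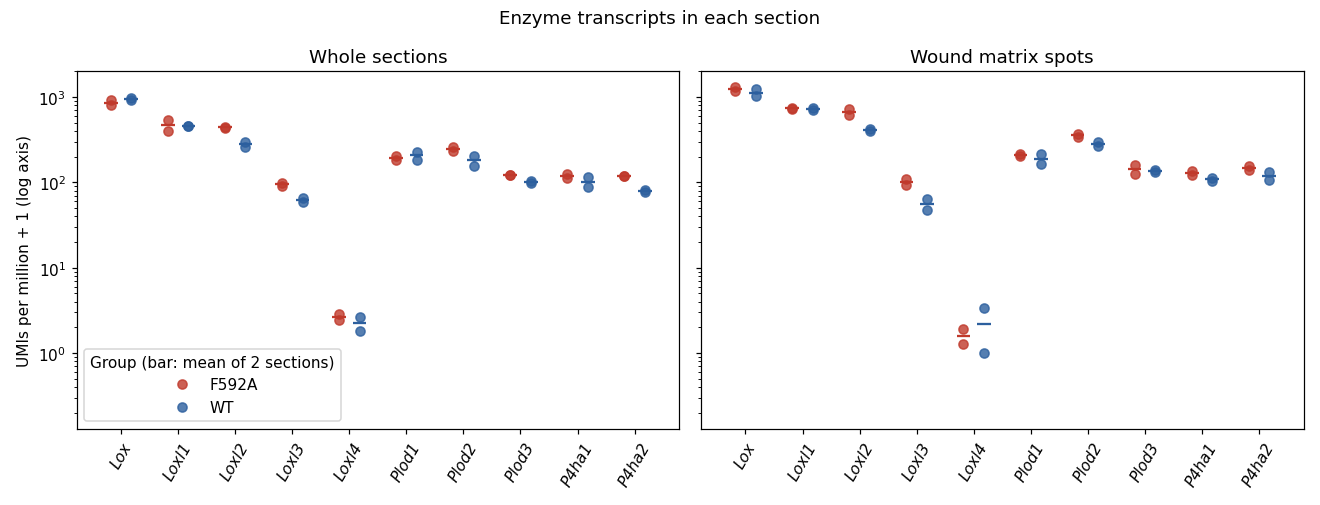
CPM + 1 of each enzyme on a log axis, in whole sections (left) and wound matrix spots (right). Points are sections, F592A left of WT, and short bars are means of 2 sections. Loxl2, Loxl3, Plod2 and P4ha2 show no overlap between groups in either panel.

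In wound matrix spots alone the difference was largest for Loxl3 and Loxl2. Loxl3 stood at 108 and 92.6 CPM in F592A sections and at 62.2 and 46.0 CPM in WT sections (0.80 ± 0.17, edgeR, adjusted p = 0.083). Loxl2 stood at 606 and 731 CPM in F592A sections and at 398 and 426 CPM in WT sections (0.65 ± 0.15, edgeR, adjusted p = 0.085). Lox, at 1303 and 1171 CPM in F592A sections and 1226 and 1024 CPM in WT sections, overlapped, and so did Loxl1, Plod1 and Plod3. None of the 9 enzymes tested was called in edgeR (0.595% of genes were), 2 had an unadjusted p under 0.05 (12.1% of genes), and 5 had both F592A sections above both WT sections (25.3% of genes).

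Calls in these spots depended on the tool, the filter and the sections. DESeq2 called Loxl2 (adjusted p = 0.025), but the share of all genes that it called in these spots is not given here. In whole sections DESeq2 called far more genes than edgeR did. With no filter on low counts edgeR called Loxl2 and Loxl3. In fits with a lone WT section, edgeR called Loxl2 and Loxl3 without WT 2 and Loxl3 without WT 1. These edgeR settings also called more genes in all than the main fit did (totals are given in the closing section). Depth differed between groups, with medians of 16599 and 12894 UMIs per wound matrix spot in F592A sections and 49004 and 17140 in WT sections. Gm42418, AY036118 and Lars2 together stood at 4477 and 8204 CPM there in F592A sections and 3760 and 5728 CPM in WT sections, which overlapped. In the wound matrix spots with the lowest share of these transcripts, Loxl2 stood at 588 and 769 CPM in F592A sections and 401 and 425 CPM in WT sections. In whole sections the spots with over 8000 UMIs gave Loxl2 at 426 and 418 CPM in F592A sections and 257 and 276 CPM in WT sections, Loxl3 at 99.5 and 111 CPM in F592A sections and 65.3 and 66.5 CPM in WT sections, and P4ha2 at 128 and 132 CPM in F592A sections and 83.4 and 85.0 CPM in WT sections.

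Shallower spots separated the groups for some enzymes and depths and not for others. Between 4000 and 8000 UMIs Loxl2 overlapped, at 526 and 428 CPM in F592A sections and 168 and 474 CPM in WT sections. At this depth P4ha2 was higher in both F592A sections, at 65.2 and 57.6 CPM against 38.0 and 44.9 CPM in WT sections. Loxl3 was too, at 46.4 and 44.5 CPM in F592A sections against 17.5 and 43.5 CPM in WT sections. Between 2000 and 4000 UMIs Loxl2 was higher in both F592A sections, at 457 and 755 CPM against 385 and 441 CPM in WT sections. Between 2000 and 4000 UMIs P4ha2 overlapped, at 60.7 and 67.8 CPM in F592A sections and 45.4 and 74.5 CPM in WT sections, as did Loxl3, at 35.6 and 42.6 CPM in F592A sections and 23.3 and 41.5 CPM in WT sections. Between 1000 and 2000 UMIs Loxl3 was lower in both F592A sections, at 29.2 and 33.6 CPM, than in the WT sections, at 42.0 and 60.2 CPM. These values rest on only 15 and 3 Loxl3 UMIs in F592A sections and 27 and 24 in WT sections, so counting error was large. Loxl2 and P4ha2 overlapped at this depth.

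In tendon spots no enzyme was called by edgeR (0% of genes were, and 812 of 12307, or 6.6%, had an unadjusted p under 0.05, as did 4 enzymes, while DESeq2 called 16 genes). Plod2 stood at 339.6 and 366 CPM in F592A sections and at 197 and 232 CPM in WT sections (0.68 ± 0.17, edgeR, adjusted p = 0.64). Plod1 stood at 242 and 208 CPM in F592A sections and at 322 and 304 CPM in WT sections (-0.49 ± 0.16, edgeR, adjusted p = 0.74). The 2 lysyl hydroxylases thus lay on opposite sides of WT, and neither passed the test. Plod2 was called with no filter on low counts and with the crossed pairing of sections as a block, which was added after seeing the data. Both settings also called many other genes (totals are given in the closing section).

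Across the 12 classes with enough spots, Loxl2 was higher in both F592A sections than in both WT sections in 11 and lower in 1 (slow muscle). P4ha2 was higher without overlap in 8 classes and lower in 0, Loxl3 and Plod2 in 7 each, with 1 and 2 lower, and Lox in 0, with 4 lower. Plod1 was higher in 0 classes and lower in 5, and Loxl1 higher in 0 and lower in 2. Plod3 and P4ha1 were higher in 5 each and Loxl4 in 2, with 0 lower. Classes of a section share its library, so these counts are a description of the same 4 sections. Of all genes tested, 13.9% to 25.3%, depending on the class, lay above without overlap and 15.4% to 33.5% below.

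**Figure D5:**
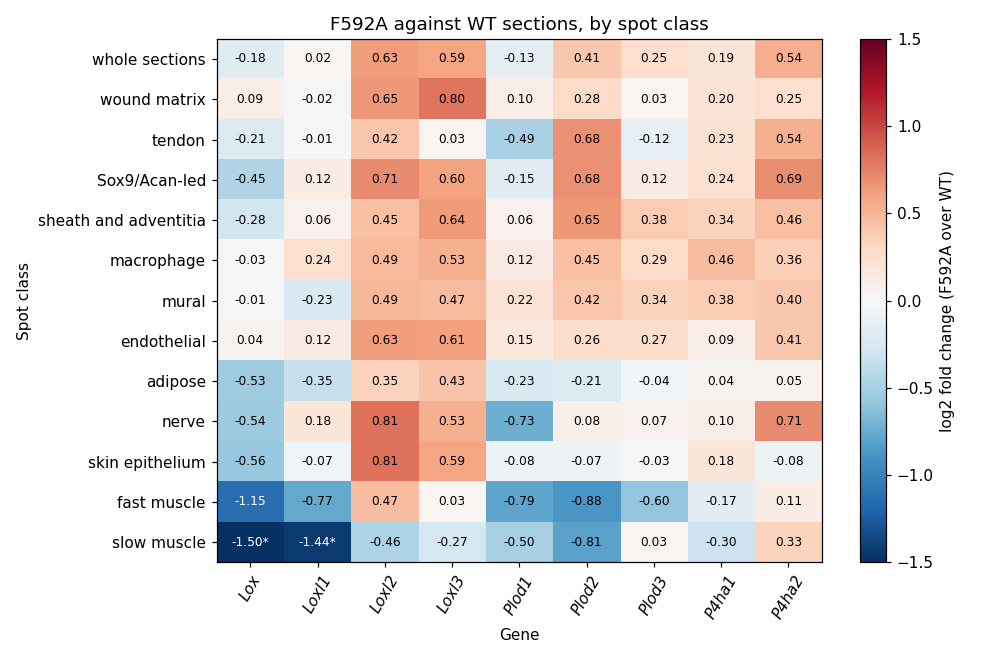
Heat map of the log2 fold change of F592A over WT sections for 9 enzymes (columns; Loxl4 is too sparse) in whole sections and in 12 spot classes (rows). Stars mark an adjusted p under 0.05 in edgeR. The Loxl2 and P4ha2 columns are positive in 11 of 12 classes each, and Lox and Loxl1 are starred only in slow muscle, where 1.91% of genes were called.

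Muscle spots were the only tissue set of those planned in which enzymes were called, and all calls were toward lower levels in F592A sections. Lox stood at 166 and 94.7 CPM in F592A sections and at 621 and 535 CPM in WT sections (-1.83 ± 0.27, edgeR, adjusted p = 0.010). Plod2 stood at 47.0 and 34.5 CPM in F592A sections and at 139 and 129 CPM in WT sections (-1.40 ± 0.19, edgeR, adjusted p = 0.0096). With Loxl1 (-1.74), Plod3 (-1.16), Plod1 (-1.02) and Loxl3 (-0.70), 6 of 9 enzymes were lower, against 11.4% of genes lower and 23.8% in either direction. Here scaling shifted all genes by 0.32 log2 units relative to CPM, and the fold changes are given after that shift.

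The makeup of the muscle spots differed between groups. Regenerating muscle spots, with embryonic myosin markers, numbered 20 and 3 in F592A sections and 457 and 109 in WT sections, and Col1a1 in muscle spots stood at 10886 and 6604 CPM in F592A sections and 30783 and 34716 CPM in WT sections. In slow muscle spots alone edgeR called 2 of 9 enzymes, Lox and Loxl1, both lower in F592A sections (1.23% of genes were called lower). In fast muscle spots alone 0 of 9 enzymes were called by edgeR (0.204% of genes were), and 5 had an unadjusted p under 0.05 (10.6% of genes). There Lox was at -1.15 ± 0.28 (edgeR, adjusted p = 0.17) and Loxl2 at 0.47 ± 0.21, on the other side of 0. Without F592A 2 all 6 calls were lost, without WT 1 those of Loxl1, Loxl3, Plod1 and Plod3, and without WT 2 that of Loxl3, which DESeq2 did not call either. The part of regenerating muscle in the difference was not tested.

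The group effect in wound matrix spots minus that in muscle spots was above 0 for all 9 enzymes tested, and edgeR's interaction test called 8 of them, against 16.4% of genes. It was 1.97 ± 0.24 for Lox (adjusted p = 0.00050), 1.69 ± 0.21 for Plod2 (adjusted p = 0.00057) and 0.45 ± 0.20 for P4ha1, which was not called (edgeR, adjusted p = 0.14). DESeq2 did not call Loxl2 and P4ha2, and at a z minimum of 0.5 Loxl2 was not called. With fast muscle spots in place of all muscle spots, 0 of 9 enzymes were called, and 24 genes in all were.

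Enzyme transcripts were also set against their substrate, as UMIs per 1000 UMIs of Col1a1, Col1a2 and Col3a1, the chains of collagens I and III. Loxl2 stood at 4.68 and 4.46 in F592A sections and at 2.87 and 2.44 in WT sections, a ratio of means of 1.72. The ratio was 1.66 for Loxl3, 1.60 for P4ha2, 1.49 for Plod2, 1.31 for Plod3 and 1.28 for P4ha1. These 6 lay above WT without overlap, against 20.1% of genes, and 0 lay below, against 6.43%. The divisor thus placed more genes above WT than below. Col1a1 stood at 42599 and 45027 CPM in F592A sections and 44923 and 60995 CPM in WT sections. With Col1a1 alone as the divisor the ratio was 1.64 for Plod2 and 1.40 for P4ha1. For Lox, against the summed chains, it was 0.962, with overlap. An exact two-sided permutation test gave p = 0.33 for each of the 6, the smallest p that 2 against 2 sections allow. In wound matrix spots the ratio against the summed chains was 1.95 for Loxl3, 1.71 for Loxl2, 1.32 for Plod2, 1.31 for P4ha2 and 1.25 for P4ha1. Plod3 stood at 1.11 there, with overlap.

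Of 9 fibrillar collagens, the substrates, 0 were called in whole sections, 6 had a negative log2 fold change and the median was -0.20, against 0.00 over all genes, of which 49.9% were positive, with Col11a2 at -1.89 ± 0.40 and Col2a1 at -1.32 ± 0.38. Of 14 other genes of procollagen modification and folding, 0 were called, 9 were negative and the median was -0.06, with P3h2, a prolyl 3-hydroxylase, at -0.41 ± 0.13. For the 10 enzymes described here the median was 0.30, and 8 were positive. The median was 0.07 for propeptide-processing enzymes (0 of 7 tested were called, 5 were positive), -0.04 for elastic fibre genes (0 of 11, 7 negative) and 0.14 for other matrix crosslinkers (0 of 5, 3 positive).

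Hypoxia-inducible factor raises P4ha1, P4ha2, Plod1, Plod2 and Lox in many cell types. Of 15 other known targets of this factor, 0 were called in whole sections, 13 had a positive log2 fold change, and the median was 0.40. Ankrd37 stood at 1.61 ± 0.23, Vegfa at 0.66 ± 0.11, Slc2a1 at 0.49 ± 0.11 and Ldha at 0.47 ± 0.13, with edgeR's adjusted p from 0.14 to 0.29. In wound matrix spots 0 of 14 tested were called, 11 were positive and the median was 0.29. Fast muscle spots made up 20.3% and 17.5% of spots in F592A sections and 13.5% and 9.24% in WT sections. The part of tissue makeup in the whole-section values was not tested.

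Of 7 genes that respond to TGF-beta, which raises several lysyl oxidases and Plod2 in fibroblasts, 0 were called in whole sections. There 5 were positive and 2 negative, with a median of 0.25. In wound matrix spots 2 of the 7 were called, both higher, with Ccn2 at 1.96 ± 0.25 (edgeR, adjusted p = 0.0070). There 6 were positive, and Skil was negative at -0.60 ± 0.16 and not called. The elastic fibre gene Efemp1 rose there by 1.48 ± 0.26 (edgeR, adjusted p = 0.035). No gene of the fibrillar collagen list was called there.

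Because hypoxia-inducible factor binds a core that can read ACGTG, promoters were searched for this form on both strands. The windows run from 250 bases before to 50 after the gene start (RefSeq, GRCm38.p6), and 5 of the 10 genes were in the table. Lox, Loxl1, Loxl2, Loxl3 and Plod2 were not in it and were not searched. P4ha2 (chr11:54100674-54100973, plus strand) held 2 matches, at -78 and 11 from the start, Plod3 (chr5:136986769-136987068, plus strand) held 1 at -54 and P4ha1 (chr10:59323046-59323345, plus strand) held 1 at -16, read on the opposite strand. Plod1 and Loxl4 held 0, and other forms of the core were not counted. Of all 32851 promoters in the table, 19.6% held at least 1. The 3 windows with a match are shown 5′ to 3′ with the match in capitals.
P4ha2: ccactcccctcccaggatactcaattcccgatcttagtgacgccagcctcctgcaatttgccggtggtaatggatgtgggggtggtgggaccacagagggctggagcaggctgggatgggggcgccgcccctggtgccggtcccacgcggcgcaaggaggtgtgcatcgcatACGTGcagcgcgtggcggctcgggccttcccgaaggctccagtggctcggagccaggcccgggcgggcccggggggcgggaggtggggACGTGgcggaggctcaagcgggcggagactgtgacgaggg
P4ha1: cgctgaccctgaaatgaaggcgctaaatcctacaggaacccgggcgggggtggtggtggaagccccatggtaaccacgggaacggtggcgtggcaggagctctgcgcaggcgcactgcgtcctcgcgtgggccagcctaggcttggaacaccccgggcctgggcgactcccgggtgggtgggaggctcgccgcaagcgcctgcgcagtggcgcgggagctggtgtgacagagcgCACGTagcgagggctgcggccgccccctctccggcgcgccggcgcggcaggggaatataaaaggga
Plod3: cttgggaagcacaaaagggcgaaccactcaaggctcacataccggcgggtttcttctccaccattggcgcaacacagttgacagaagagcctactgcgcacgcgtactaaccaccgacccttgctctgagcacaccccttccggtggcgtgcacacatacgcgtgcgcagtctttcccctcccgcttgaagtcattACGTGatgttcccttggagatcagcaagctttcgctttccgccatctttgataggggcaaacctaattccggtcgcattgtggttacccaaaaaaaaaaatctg
A match describes these letters in this window only and shows no binding.

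Over 49 profiles (class by section, sharing libraries and depth), each enzyme was set against 9729 genes by Pearson correlation of log2(CPM + 1), as a description. Nearest to Lox were Kdelr2, Cdh11 and Sparc (r = 0.978 for each), and to Loxl1 were Olfml2b (r = 0.974), C1qtnf6 and Col5a1. Nearest to Plod2 were Col6a2 (r = 0.959), Serpinh1 and Fam114a1, and to Plod3 were P3h1 (r = 0.962), Kdelr3 and B3gnt9. Plod1 was nearest to Cd81 (r = 0.958), P4ha1 to Dap (r = 0.922), P4ha2 to Itga5 (r = 0.914) and Loxl3 to Selenom (r = 0.939). Loxl2 reached at most 0.884, with Slc39a7, and Loxl4 at most 0.686, with Ccdc12. Serpinh1 and P3h1 belong to the collagen folding machinery of the endoplasmic reticulum.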

How the data were processed

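Visium libraries of 4 sections, 2 F592A and 2 WT, were used as deposited. What the authors deposited are unnormalized UMI counts for each gene in each tissue spot, written by Space Ranger 1.3.0 per the file headers. The submitters' processing notes name the build mm10 and Seurat 3.

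A minimum of 500 UMIs per spot removed 3 and 3 spots from F592A 1 and F592A 2, and 4 and 3 from WT 1 and WT 2. Each spot's mean log(1 + counts per 10000) over a marker list was z-scored over all spots, and the spot took the list with the highest z if that was at least 1. A class is a range of this score. Counts were summed per section and class. edgeR 4.0.16 (R 4.3.3; TMM, filterByExpr, quasi-likelihood test, Benjamini-Hochberg over all genes tested, threshold 0.05) compared groups and, with section as a block, classes and the group-by-class difference. DESeq2 1.42.0, RLE scaling, no filter, leaving out sections, other z minimums (0.5 and 1.5), 1000 UMIs per spot and a replicate block were alternatives. The fits were tested on simulated data.

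Sections held 30154873 to 43957617 counts, and counting error was greatest for Loxl4. All members were named in each comparison. Of each other list, up to 4 genes with the smallest p were eligible, and for each member the 3 most alike genes. Some results for genes outside the enzyme family are not reported here. Members and lists were chosen with earlier results of these data known. The barcodes that sections share (994 to 2429 per pair) are array positions. Tendon fits used at least 20 in place of 30 spots per section. Python 3.11.15 was used for the sums.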

Additional observations from a re-analysis of the deposited data

Results flagged for a closer look

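The group effect (F592A over WT, log2) in wound matrix spots differed from that in muscle spots for 8 enzymes, by edgeR's interaction test with section as a block. The difference, wound matrix minus muscle, was 1.97 for Lox, 1.79 for Loxl1, 0.87 for Loxl2, 1.49 for Loxl3, 1.14 for Plod1, 1.69 for Plod2, 1.20 for Plod3 and 0.75 for P4ha2. With fast muscle spots alone none of the 8 was called by edgeR, and regenerating muscle spots numbered 20 and 3 in F592A sections and 457 and 109 in WT sections.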

How the results depend on the processing

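Calls over all genes moved with the settings. For whole sections edgeR called 13 genes, against 5 with RLE scaling, 418 with DESeq2, 546 with no filter, 1 without muscle spots, 4 without mitochondrial, haemoglobin and muscle genes, and 0 to 390 when 1 section was left out. Without F592A 1 it called 0 (1441 genes had an unadjusted p under 0.05), without F592A 2 also 0 (835 had), 349 without WT 1 and 390 without WT 2. For wound matrix spots it called 71, against 450 with no filter, 23 with a z minimum of 0.5 and 5 to 683 with 1 section left out (10 without F592A 1, 5 without F592A 2, 256 without WT 1, 683 without WT 2). For tendon spots it called 0, against 336 with no filter, 16 with DESeq2 and 0 to 5 with 1 section left out. For muscle spots it called 2998, against 23 with fast muscle spots alone and 60 to 2448 with 1 section left out (1904 without F592A 1, 60 without F592A 2, 629 without WT 1). The interaction called 2159, against 742 with DESeq2 (Loxl2 and P4ha2 lost) and 24 with fast muscle spots alone, and a z minimum of 0.5 lost Loxl2. With 1 section left out, the lone section of a group is assumed to vary like the others.

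With 1 section left out, class comparisons called 591 to 2964 genes for tendon, 1151 to 2781 genes for sheath and adventitia, 1282 to 3446 genes for Sox9/Acan-led, 602 to 1310 genes for nerve, 685 to 1338 genes for adipose, 2439 to 4290 genes for macrophage, 743 to 1514 genes for endothelial, 508 to 690 genes for mural. The replicate numbers did not pair the sections (r = -0.14 between same-numbered deviations): with a replicate block 7 genes were called in whole sections, 5 in tendon, 50 in wound matrix and 3565 in muscle spots, the last with P4ha2 added. Crossed pairing, added after seeing the data, called 189, 189, 107 and 3181 genes in whole sections, tendon, wound matrix and muscle spots.

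Of the called log2 fold changes, that of Loxl3 in muscle spots changed sign, with fast muscle alone; the others below were not called. With fast muscle spots alone Loxl2 was 0.47, Loxl3 0.034 and P4ha2 0.11. At a z minimum of 1.5 Loxl1 was 0.019 in wound matrix and 0.080 in tendon spots, and with no filter Loxl3 was -0.011 in tendon. In tendon against other spots, Loxl2 was 0.0034 with RLE and 0.045 at a z minimum of 0.5, P4ha2 was -0.0036 with no filter and -0.0011 at 0.5, and Loxl4 was 0.044 at 1.5. With 1 section left out, ranges that crossed 0 were, in whole sections, Loxl1 (-0.24 to 0.25), Loxl4 (-0.018 to 0.92), Plod1 (-0.31 to 0.071), P4ha1 (-0.037 to 0.45); in wound matrix spots, Lox (-0.035 to 0.24), Loxl1 (-0.079 to 0.039), Plod1 (-0.078 to 0.34), Plod3 (-0.16 to 0.20); in tendon spots, Loxl1 (-0.41 to 0.24), Loxl3 (-0.16 to 0.25), Plod3 (-0.26 to 0.021), P4ha1 (-0.13 to 0.56); and in muscle spots, Loxl2 (-0.54 to 0.063). For classes they were, in tendon, Loxl2 (-0.058 to 0.069), Loxl4 (-0.24 to 0.050), P4ha2 (-0.068 to 0.069) and, in Sox9/Acan-led spots, Loxl4 (-0.0061 to 0.28). Their causes were not tested.

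With 2 sections per group, allele, drug and sampled tissue cannot be told apart, and the only female section was in WT.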
